A study of Mus musculus with 11 samples.

Results

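Gene targeting marks a stretch of chromosome as well as a gene, and the genes that flank Rfx2 on mouse chromosome 17 were examined here in testes with and without a deletion in Rfx2. The members are the genes of the count table whose transcription start lies within 10 Mb of the Rfx2 start at position 56831013 of chromosome 17 (GRCm38, GENCODE vM21) and whose mean count over the 11 mice was at least 10. Rfx2 itself, Kif6, Guca1a and Guca1b were left out by the rule. This gave 119 members of the 23074 genes in the table. The window held 161 genes, of which 38 had a mean count under 10, among them 5 at 0 in every mouse. Of the members, 82 lay at lower and 37 at higher coordinates than the Rfx2 start, and 116 were annotated as protein coding. Rfx2 is transcribed towards lower coordinates, so the members at higher coordinates lie upstream of its start.

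RNA-Seq was performed on decapsulated testes of mice at postnatal day 21, of which 5 were wild type (WT 1 to 5) and 6 were Rfx2-/- (Rfx2-/- 6 to 11). All mice came from a mixed background of C57BL/6, 129/Sv and FVB/N. Exon 7 of Rfx2, which encodes much of the DNA binding domain, had been flanked by loxP sites in R1 embryonic stem cells of strain 129/Sv, the chimeras were bred to C57BL/6, and the exon was removed with a Cre strain on FVB/N that acts throughout the body. The mixed background line kept the neomycin selection cassette at the locus, and littermates were used where possible. Each library came from 1 mouse, so p-values measure the spread between mice.

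RFX2 is a transcription factor of pachytene spermatocytes and early round spermatids that binds X-box motifs near the starts of its target genes, many of them needed for cilia and flagella. When a gene is targeted in embryonic stem cells, the DNA next to it comes from the strain of those cells and is inherited together with the altered allele, until recombination separates them. Mice homozygous for the targeted allele can therefore carry other alleles at neighbouring genes than their wild type littermates, and a selection cassette can itself act on genes nearby. The strain of origin of each segment was not measured here. For every member, the deletion of exon 7, the cassette and the flanking alleles cannot be told apart in these groups.

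Total counts ranged from 26925157 to 29769483 in WT and from 22232097 to 27116903 in Rfx2-/- mice, with lower totals in the latter (two-sided exact permutation test, p = 0.013). Rfx2 had 191 to 472 CPM (reads scaled to a common library size) in WT and 282 to 324 CPM in Rfx2-/- testes, and a count over the whole gene does not check the loss of 1 exon. The mice differed in the levels of germ cell markers. The mean log2 CPM of 6 pachytene spermatocyte markers was 7.80 in WT 3 and 7.57 in WT 5, against 8.97 to 9.23 in the other WT mice and 9.09 to 9.56 in Rfx2-/- mice (exact permutation test, adjusted p = 0.0577 over 8 cell type lists). The mean of 10 round spermatid markers spanned 0.02 to 5.69 in WT and 0.95 to 5.33 in Rfx2-/- mice (exact permutation test, adjusted p = 0.788). Sertoli cell markers averaged 6.33 to 6.94 in WT and 6.14 to 6.44 in Rfx2-/- mice, and macrophage markers 3.03 to 3.87 and 2.82 to 3.21 (exact permutation test, adjusted p = 0.0577 for both). Fewer cells of a type and less RNA per cell cannot be told apart in whole testis. With the round spermatid score as a covariate, 31 members were called (26.5%, against 21.6% of all tested genes), and results were also computed without WT 3 and WT 5. The part of the Sertoli cell and macrophage markers in the results for single members was not tested.

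Few of the genes around Rfx2 were called between genotypes, at shares not far from those of all tested genes over the whole window, and the calls lay on both sides of Rfx2. Of the 119 members, 117 had enough counts to be tested. In edgeR's quasi-likelihood test, 5 of them were called, with an adjusted p (Benjamini-Hochberg, over all genes) of at most 0.01, which is 4.27% of the tested members. Of all 15745 tested genes, 420 were called, or 2.67%. A single member was higher in Rfx2-/- testes (0.855%, against 0.73% of all tested genes), and 4 were lower (3.42%, against 1.94%). Only Stap2 of the 5 changed more than 2-fold (0.855% of tested members, against 1.25% of all tested genes). At an adjusted p of at most 0.05, 19 members passed, 7 higher and 12 lower (16.2%, against 14.9% of all tested genes). The CPM of the 5 WT and the 6 Rfx2-/- mice did not overlap for 17 members, 9 higher and 8 lower (14.5%, against 11.7%). The median log2 fold change of the tested members was -0.01, beside -0.05 for all tested genes, and the median of its absolute value was 0.29 in both.

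**Figure D1:**
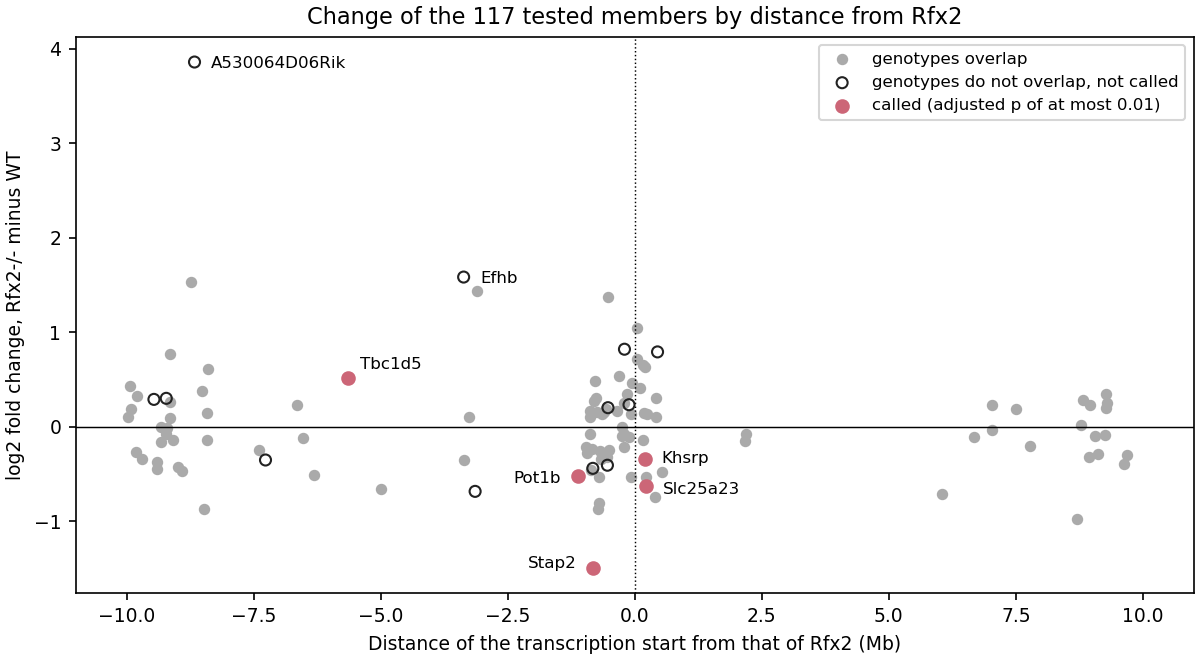
Log2 fold change (Rfx2-/- minus WT, y axis) of the 117 tested members against the distance of their transcription start from that of Rfx2 in Mb (x axis; negative values are lower coordinates). Filled red points are the 5 called members, open circles are members whose genotypes did not overlap without a call, and grey points are the rest; the points spread around 0 at all distances, with A530064D06Rik at 3.86 standing highest.

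The members are unevenly placed, and more of them lie close to Rfx2 than in the middle of the window. Within 1 Mb there were 56 members, all tested, and 3 were called (5.36%): Stap2 on the lower side, and Khsrp and Slc25a23 on the higher side. All 3 were lower in Rfx2-/- testes. Between 1 and 2.5 Mb only 3 members were tested, 1 of which, Pot1b, was called and lower. Of 6 tested members between 2.5 and 5 Mb, none was called, 4 passed an adjusted p of 0.05 and 2 did not overlap. Of 52 tested members between 5 and 10 Mb, 1 was called (1.92%), Tbc1d5, which was higher. Within 5 Mb, 4 of 65 tested members were called (6.15%), all lower, against 2.67% of all tested genes. On the rest of the chromosome, 12 of 643 tested genes were called (1.87%).

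The overlap of genotypes gave a similar picture. Within 1 Mb, 9 of 56 did not overlap (16.1%), between 5 and 10 Mb 5 of 52 (9.62%), and on the rest of the chromosome 10.7%. The median absolute log2 fold change was 0.31 within 1 Mb and 0.27 between 5 and 10 Mb. On the lower side, the 40 members within 1 Mb had a median absolute log2 fold change of 0.25, and 6 of them did not overlap. The 33 tested members between 5 and 10 Mb on the lower side had one of 0.30, and 5 did not overlap. On the higher side, the 16 members within 1 Mb had a median absolute log2 fold change of 0.50. The 19 members between 5 and 10 Mb on the higher side had one of 0.23, with no member that did not overlap. The median was thus smaller at the larger distance on the higher side only. A gap without members of 3.87 Mb separates Nudt12 from Efna5 on that side. Spearman's rank correlation between absolute distance and absolute log2 fold change was -0.13 over the 117 tested members, which share libraries and are neighbours of each other. The differences between distance classes were not tested, and the middle classes hold too few members to give a share.

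**Figure D2:**
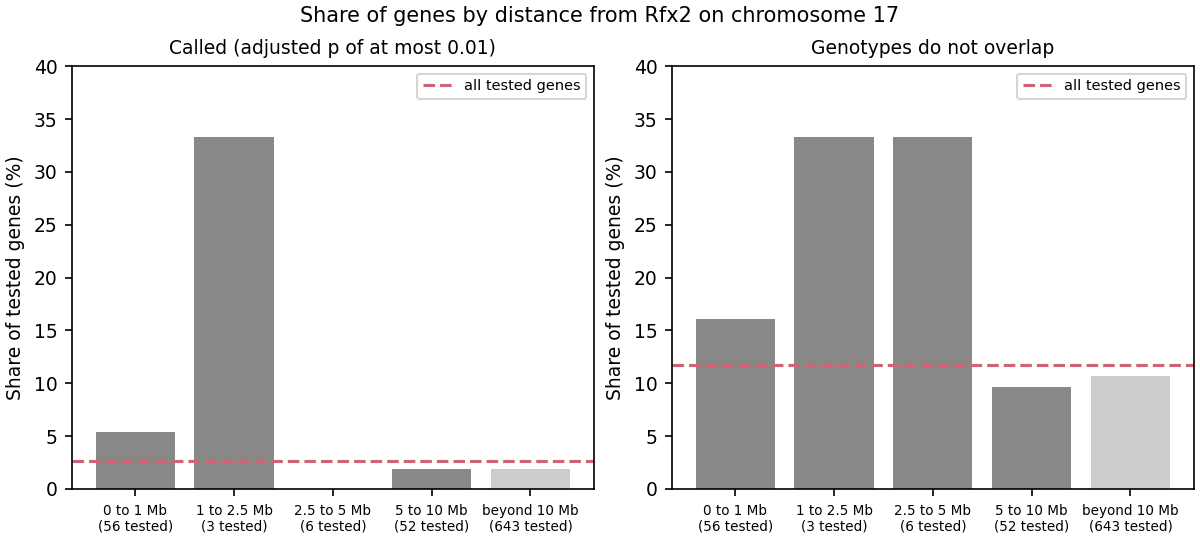
Share of tested genes (y axis, %) that were called (left) or whose genotypes did not overlap (right), by distance from Rfx2 on chromosome 17 (x axis, both sides joined). The dashed line is the share among all tested genes, 2.67% on the left and 11.7% on the right; the tall bars between 1 and 5 Mb rest on 3 and 6 members.

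None of the 3 nearest members on each side passed the test as fitted without covariates, and 2 of them, Acsbg2 and 1700061G19Rik, were called once the round spermatid score was fitted as a covariate. On the higher side, the first member is Acsbg2 (43.4 kb, 56843103 to 56874447), an acyl-CoA synthetase of the bubblegum family that is abundant in testis. It had 44.1, 12.1, 0.568, 1.30 and 0.0943 CPM in WT 1 to 5, and 2.13 to 73.8 CPM with a median of 15.2 in Rfx2-/- mice. The genotypes overlapped, though WT 3, WT 4 and WT 5 lay below every Rfx2-/- mouse. The log2 fold change was 1.05 (SE 1.31, adjusted p = 0.546, 95% interval -1.83 to 3.93). With 1 mouse left out it ranged from 0.28 without Rfx2-/- 7 to 2.78 without WT 1, and with the round spermatid score as covariate it was 1.73 (adjusted p = 0.0036). The next member, 1700061G19Rik (44.5 kb), had 74.4, 22.6, 1.99, 2.35 and 0.692 CPM in WT 1 to 5, and 3.33 to 99.7 CPM with a median of 20.9 in Rfx2-/- mice. Its log2 fold change was 0.72 (SE 1.20, adjusted p = 0.652, 95% interval -1.91 to 3.35), and 1.21 with the covariate (adjusted p = 0.00639). On the lower side, Prr22 (60.8 kb) had 43.7, 19.4, 2.73, 4.10 and 0.974 CPM in WT 1 to 5, and 3.42 to 44.6 CPM with a median of 16.2 in Rfx2-/- mice (log2 fold change 0.46, SE 0.94, adjusted p = 0.712, 95% interval -1.61 to 2.53), and 0.76 with the covariate (adjusted p = 0.0369). These 3 genes stood highest in WT 1 and lowest in WT 5, as did the round spermatid markers, and their intervals without the covariate leave changes of more than 2-fold in either direction within reach.

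The other 3 near members were measured far more closely. Dus3l (66.3 kb), which encodes a tRNA dihydrouridine synthase, had 60.9, 62.7, 59.6, 62.4 and 57.0 CPM in WT 1 to 5, and 60.4 to 71.1 CPM with a median of 67.5 in Rfx2-/- mice. Its log2 fold change of 0.14 (SE 0.05, adjusted p = 0.0882) had a 95% interval of 0.02 to 0.26. Nrtn (73.5 kb), which encodes the growth factor neurturin, was low, with 2.08, 1.92, 1.31, 1.72 and 1.38 CPM in WT 1 to 5, and 0.740 to 1.61 CPM with a median of 1.14 in Rfx2-/- mice (log2 fold change -0.53, SE 0.20, adjusted p = 0.0796, 95% interval -0.98 to -0.09). Mllt1 (104 kb), a reader of acetylated histones in transcription elongation complexes, had 168, 156, 95.3, 156 and 99.3 CPM in WT 1 to 5, and 159 to 193 CPM with a median of 183 in Rfx2-/- mice (log2 fold change 0.41, SE 0.15, adjusted p = 0.0777, 95% interval 0.07 to 0.75). WT 3 and WT 5 were its lowest mice, and without both the log2 fold change was 0.17.

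**Figure D3:**
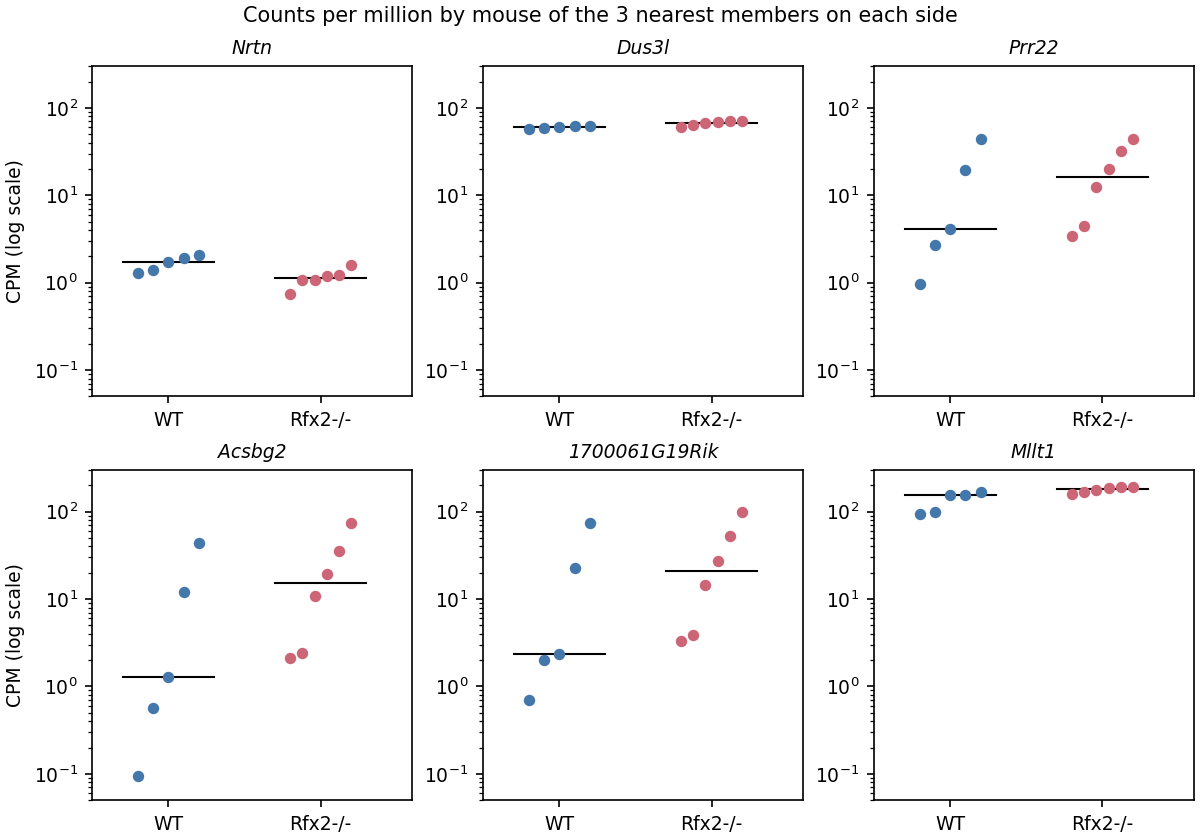
CPM (y axis, log scale, the same in all panels) of the 3 nearest members on each side of Rfx2 in each of the 5 WT (blue) and 6 Rfx2-/- (red) mice, with black lines at the medians. Acsbg2, 1700061G19Rik and Prr22 spread over more than 10-fold within each genotype, while Dus3l stayed between 57.0 and 71.1 CPM in all mice.

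The 5 called members encode proteins of unrelated functions. Slc25a23, a calcium-regulated carrier of ATP-Mg and phosphate in the inner mitochondrial membrane, lies 229 kb from Rfx2 (minus strand, 57043711 to 57059863). It had 27.6, 28.4, 31.1, 29.8 and 33.0 CPM in WT 1 to 5, and 17.4 to 23.0 CPM with a median of 18.97 in Rfx2-/- mice. Every Rfx2-/- mouse was below every WT mouse, with a log2 fold change of -0.63 (SE 0.08, adjusted p = 0.00129). It was called under all 20 alternative fits, the only member of which this held. Khsrp, an RNA-binding protein that acts in splicing and in the decay of mRNA, lies 201 kb away (minus strand, 57021051 to 57031522). It had 183, 182, 162, 197 and 187 CPM in WT 1 to 5, and 132 to 151 CPM with a median of 147 in Rfx2-/- mice. The fall was small but without overlap (log2 fold change -0.34, SE 0.06, adjusted p = 0.00793). The call was lost in 10 of the 11 fits without 1 mouse, with an adjusted p of up to 0.0252.

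Stap2, a signal-transducing adaptor protein, showed the largest fold change of the 5. It lies 825 kb away on the lower side (minus strand, 55997077 to 56005584), with 13.8, 12.2, 6.28, 10.4 and 5.06 CPM in WT 1 to 5, and 3.03 to 3.96 CPM with a median of 3.28 in Rfx2-/- mice. The WT mice varied and WT 3 and WT 5 were the lowest of them, yet both lay above all Rfx2-/- mice. The log2 fold change was -1.49 (SE 0.24, adjusted p = 0.00412), and -1.83 without WT 3 and WT 5 (adjusted p = 1.55e-05). The next called member on this side is Pot1b, a protein of the shelterin complex that binds single-stranded telomere DNA, at 1.12 Mb (minus strand, 55651951 to 55712628). It had 13.4, 13.2, 17.9, 14.9 and 15.4 CPM in WT 1 to 5, and 9.75 to 11.1 CPM with a median of 10.3 in Rfx2-/- mice (log2 fold change -0.53, SE 0.09, adjusted p = 0.00621). Without WT 3 and WT 5, Pot1b was not called (log2 fold change -0.40, adjusted p = 0.0123).

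Tbc1d5, which carries a GTPase-activating domain for Rab proteins and acts in endosomal sorting, was the farthest called member at 5.65 Mb and the only one that was higher (minus strand, 50733124 to 51179352). It had 96.0, 87.4, 77.0, 100.1 and 72.2 CPM in WT 1 to 5, and 118 to 127 CPM with a median of 125 in Rfx2-/- mice. The genotypes did not overlap (log2 fold change 0.52, SE 0.08, adjusted p = 0.00369), and the log2 fold change was 0.40 without WT 3 and WT 5 (adjusted p = 0.000864). In the fits without 1 mouse, the call of Tbc1d5 was made in 5 of 11, that of Stap2 in 4, that of Pot1b in 2 and that of Khsrp in 1, with the highest adjusted p at 0.0124, 0.0151, 0.0198 and 0.0252.

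**Figure D4:**
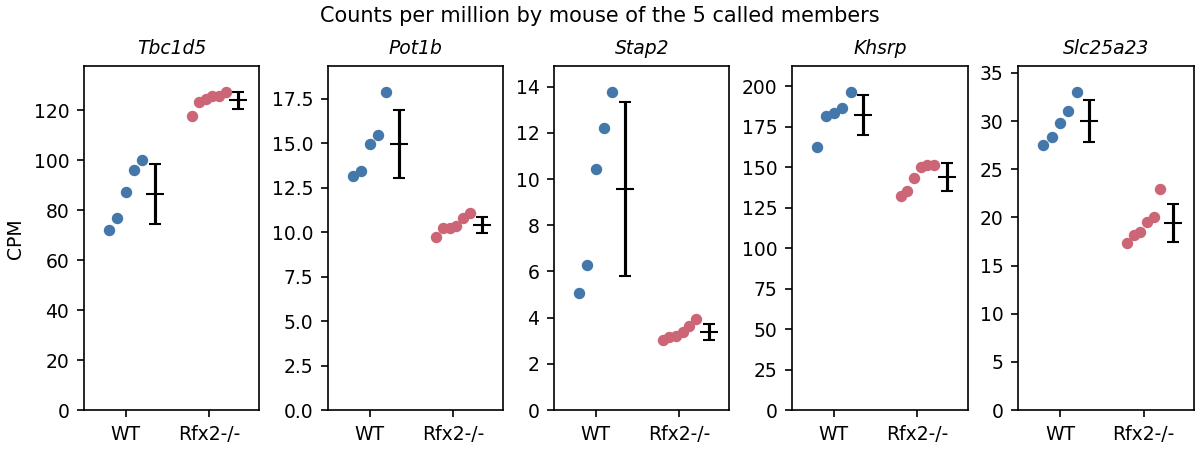
CPM (y axis, from 0) of the 5 called members in each of the 5 WT (blue) and 6 Rfx2-/- (red) mice, with black bars for the mean and SD of each genotype. The Rfx2-/- mice lie above all WT mice for Tbc1d5 and below all WT mice for Pot1b, Stap2, Khsrp and Slc25a23.

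The promoter windows below, from RefSeq (GRCm38.p6), run from 250 bases before to 50 after a transcription start. An RFX factor binds an X-box made of 2 inverted half-sites, and the half-site was searched as GTTGCC, or GGCAAC on the other strand. It is printed in capitals. Of 32851 promoters of this length, 12.5% held it, as did 11 of the 100 members with a promoter in the table, taking the one nearest to the annotated start. Among the 5 called members, only Slc25a23 held it, 136 bases before its start. A search for paired half-sites found them in 0 of these 100 promoters and in 0.80% of all 32851. At that share, a set of 100 may hold none. The first sequence is the start region of Stap2, which it shares with Mpnd, and the second is that of Slc25a23.
Stap2 (chr17:56005557-56005856, minus strand): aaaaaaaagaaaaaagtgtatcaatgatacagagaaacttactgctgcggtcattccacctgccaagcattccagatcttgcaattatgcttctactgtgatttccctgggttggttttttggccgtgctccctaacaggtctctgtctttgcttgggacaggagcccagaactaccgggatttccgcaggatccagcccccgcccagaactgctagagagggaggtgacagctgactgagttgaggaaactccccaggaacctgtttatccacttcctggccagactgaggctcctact
Slc25a23 (chr17:57059814-57060113, minus strand): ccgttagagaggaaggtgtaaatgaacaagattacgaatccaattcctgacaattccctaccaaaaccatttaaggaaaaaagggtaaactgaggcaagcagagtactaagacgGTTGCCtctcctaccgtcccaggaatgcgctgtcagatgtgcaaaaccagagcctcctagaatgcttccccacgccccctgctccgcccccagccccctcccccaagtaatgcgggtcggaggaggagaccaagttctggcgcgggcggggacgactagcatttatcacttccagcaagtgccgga
A match shows only that these letters are in the window.

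The study marked 8 members as bound by RFX2 in ChIP-Seq, namely Efhb, Ubxn6, Plin5, Safb2, Safb, 2410015M20Rik, Gtf2f1 and A930002H24Rik. None of the 8 was called and 1 passed an adjusted p of 0.05 (12.5%). Of the 948 tested genes with this mark in the whole table, 96 were called (10.1%) and 26.3% passed an adjusted p of 0.05. A set of 8 is too small to set its shares against these, and the difference was not tested. The log2 fold changes of the 8 ran from -0.53 for Plin5, a coat protein of lipid droplets (SE 0.19, adjusted p = 0.069), to 1.58 for Efhb. A promoter was at hand for 5 of them, and 4 of these held the half-site. In Safb and Safb2, which encode scaffold attachment factors and are transcribed away from each other from starts 240 bases apart, it is the same site. The 3 windows that follow are those of marked members with a half-site, at 121, 81 and 200 bases before the start of Plin5, Ubxn6 and Safb2.
Plin5 (chr17:56117499-56117798, minus strand): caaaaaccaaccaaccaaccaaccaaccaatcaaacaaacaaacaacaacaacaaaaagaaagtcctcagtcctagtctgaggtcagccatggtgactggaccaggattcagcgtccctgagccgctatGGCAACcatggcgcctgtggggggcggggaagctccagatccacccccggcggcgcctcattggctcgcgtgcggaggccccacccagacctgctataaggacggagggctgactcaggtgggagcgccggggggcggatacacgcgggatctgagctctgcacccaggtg
Ubxn6 (chr17:56074977-56075276, minus strand): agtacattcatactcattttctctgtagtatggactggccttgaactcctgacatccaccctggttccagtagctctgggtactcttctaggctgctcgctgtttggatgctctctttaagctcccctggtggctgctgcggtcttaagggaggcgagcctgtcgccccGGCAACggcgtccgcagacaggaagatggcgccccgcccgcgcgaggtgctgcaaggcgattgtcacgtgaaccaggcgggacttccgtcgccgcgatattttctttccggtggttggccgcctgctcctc
Safb2 (chr17:56584536-56584835, minus strand): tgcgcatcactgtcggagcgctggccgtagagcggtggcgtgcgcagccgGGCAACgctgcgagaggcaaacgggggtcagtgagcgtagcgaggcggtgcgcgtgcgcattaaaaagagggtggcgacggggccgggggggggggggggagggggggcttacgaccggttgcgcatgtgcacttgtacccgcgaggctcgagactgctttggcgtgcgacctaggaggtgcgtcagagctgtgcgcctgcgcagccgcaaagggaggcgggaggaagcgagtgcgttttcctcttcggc
Safb2 and Safb did not pass the test and were measured closely, with log2 fold changes of -0.09 (SE 0.07, adjusted p = 0.298) and -0.00 (SE 0.06, adjusted p = 0.965).

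Of the members, 4 pairs are transcribed away from each other from starts within 1000 bases, namely Bysl and Med20, Nfya and Oard1, Stap2 and Mpnd, and Safb2 and Safb. The members of 2 pairs had log2 fold changes of the same sign. Stap2 and Mpnd, 127 bases apart, were the only pair of which both members had genotypes that did not overlap. Mpnd, which encodes a protein with an MPN domain, had 16.9, 18.3, 19.6, 16.2 and 20.4 CPM in WT 1 to 5, and 12.0 to 14.96 CPM with a median of 13.4 in Rfx2-/- mice (log2 fold change -0.44, SE 0.09, adjusted p = 0.0132). Its WT mice stood in another order than those of Stap2, with WT 5 highest for Mpnd and lowest for Stap2. Bysl, a ribosome assembly factor, had 54.9 to 85.2 CPM in WT and 86.1 to 93.3 CPM in Rfx2-/- mice (log2 fold change 0.30, adjusted p = 0.0778, and 0.12 without WT 3 and WT 5), while its partner Med20, a subunit of the Mediator complex, had a log2 fold change of -0.07 (adjusted p = 0.613).

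Beyond the calls, 12 members had genotypes that did not overlap. Those described were chosen after their values were seen, except Sgo1 and Mrps10, each named by rule for the lowest p in a list by function. The widest gap was that of A530064D06Rik, 8.66 Mb from Rfx2 (minus strand, 48149126 to 48167275). It had 0.0352, 0.303, 2.61, 0.245 and 0.126 CPM in WT 1 to 5, and 8.10 to 11.8 CPM with a median of 9.85 in Rfx2-/- mice. It was thus at or under 0.303 CPM in 4 WT mice, intermediate in WT 3 and evenly expressed in all 6 Rfx2-/- mice. The log2 fold change was 3.86 (SE 0.84, adjusted p = 0.0186), and without WT 3 and WT 5 it was 5.63 (adjusted p = 6.63e-05). The gene passed the filter through the Rfx2-/- mice, and WT 1 lay under 3 counts (0.106 CPM). Without WT 3, only WT mice at or under 0.303 CPM remain, so the size of the fold change rests on few counts. Per kb of exon, its mean level was 0.357 CPM in WT and 5.31 CPM in Rfx2-/- testes, beside a median over members of 7.89 CPM per kb in WT.

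Efhb, an EF-hand protein of sperm and cilia microtubules at 3.37 Mb, had 64.4, 37.1, 17.3, 28.9 and 11.5 CPM in WT 1 to 5, and 75.9 to 123 CPM with a median of 92.5 in Rfx2-/- mice. All Rfx2-/- mice were higher, with a log2 fold change of 1.58 (SE 0.37, adjusted p = 0.025), and 1.14 without WT 3 and WT 5 (adjusted p = 0.0215). Sgo1, which encodes a protector of centromere cohesion of the shugoshin family, lies nearby at 3.14 Mb and differed in the opposite direction. It had 9.51, 12.4, 12.4, 11.8 and 14.9 CPM in WT 1 to 5, and 6.46 to 9.20 CPM with a median of 7.33 in Rfx2-/- mice (log2 fold change -0.68, SE 0.13, adjusted p = 0.0102). Between them lies Rab5a, a GTPase of early endosomes, with 26.2 to 39.2 CPM in WT and 25.1 to 28.1 CPM in Rfx2-/- mice (log2 fold change -0.35, adjusted p = 0.0366), where WT 1 overlapped the Rfx2-/- mice. Neighbouring genes thus had log2 fold changes of different sign.

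Nearer to Rfx2, Ndufa11, a subunit of respiratory complex I at 113 kb, had a small and even difference. It had 50.8, 55.8, 50.01, 53.1 and 52.5 CPM in WT 1 to 5, and 58.4 to 64.1 CPM with a median of 62.0 in Rfx2-/- mice (log2 fold change 0.23, SE 0.05, adjusted p = 0.0139). With total counts as library sizes, its log2 fold change was 0.070 (adjusted p = 0.476). Catsperd, a subunit of the sperm calcium channel at 203 kb, had 170, 130, 71.6, 144 and 49.3 CPM in WT 1 to 5, and 171 to 227 CPM with a median of 199 in Rfx2-/- mice (log2 fold change 0.82, SE 0.27, adjusted p = 0.0605, and 0.44 without WT 3 and WT 5). WT 3 and WT 5 were its lowest mice, and WT 1 nearly reached the lowest Rfx2-/- mouse. The same 2 mice were lowest for Uhrf1, which directs DNA methylation in dividing cells, with 119 to 159 CPM in WT and 160 to 169 CPM in Rfx2-/- mice (log2 fold change 0.20, adjusted p = 0.0968, and 0.073 without them). They were lowest too for Vav1, a signalling protein of blood cells, with 3.84 to 10.5 and 11.3 to 13.9 CPM (log2 fold change 0.79, adjusted p = 0.0553, and 0.43 without them).

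Among members that were lower, Plin3, a lipid droplet protein at 538 kb, had 27.1, 30.2, 33.0, 28.4 and 36.8 CPM in WT 1 to 5, and 21.6 to 25.9 CPM with a median of 23.2 in Rfx2-/- mice (log2 fold change -0.41, SE 0.09, adjusted p = 0.0186). Daam2, a formin that organises actin, at 7.27 Mb, had 291, 290, 384, 279 and 326 CPM in WT 1 to 5, and 233 to 259 CPM with a median of 246 in Rfx2-/- mice (log2 fold change -0.35, SE 0.08, adjusted p = 0.0256). For both, WT 3 and WT 5 were the highest mice, and the log2 fold changes without them were -0.27 and -0.21. WT 3 and WT 5 were the 2 lowest WT mice for 45 of the 117 tested members (38.5%) and the 2 highest for 35 (29.9%), beside 36.2% and 31.1% of all tested genes. The members followed the order of the WT mice about as often as other genes did.

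**Figure D5:**
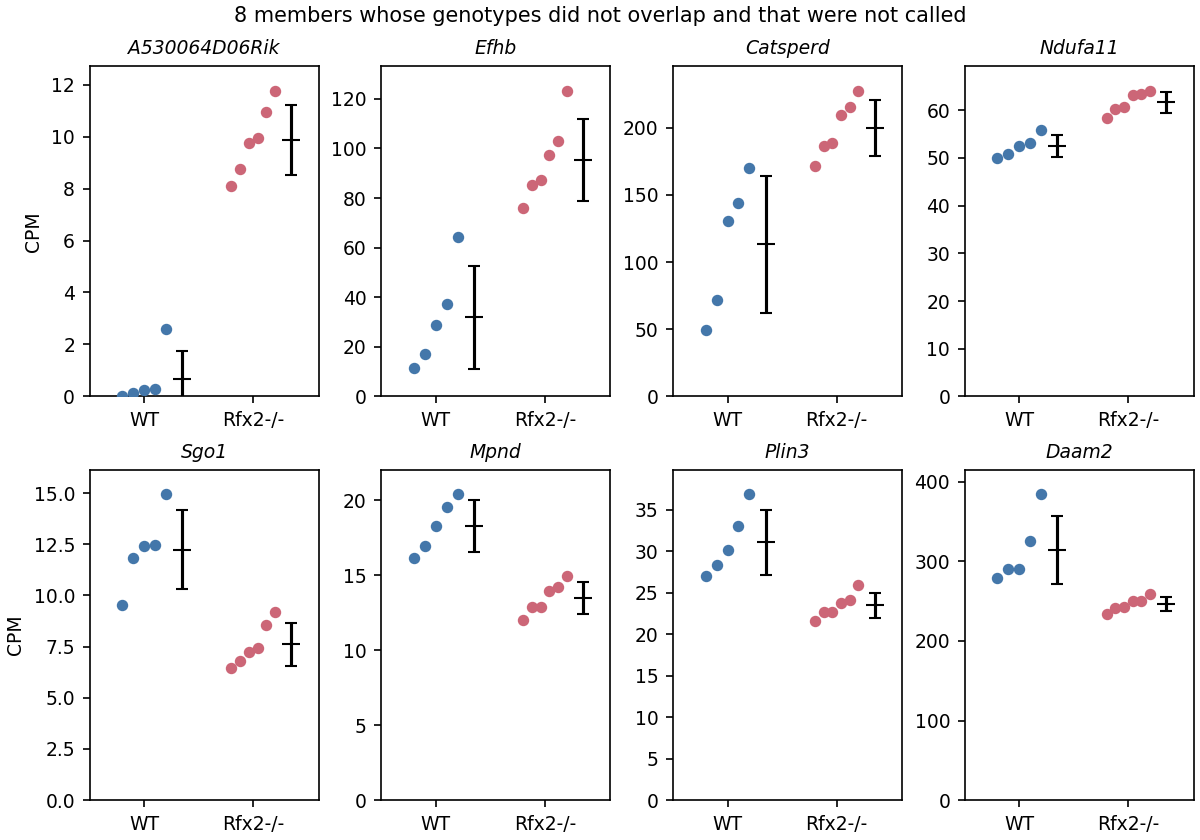
CPM (y axis, from 0) of 8 members whose genotypes did not overlap and that were not called, in each of the 5 WT (blue) and 6 Rfx2-/- (red) mice, with black bars for the mean and SD. The top row holds members that were higher in Rfx2-/- mice, where A530064D06Rik rises from at most 2.61 CPM in WT to at least 8.10 CPM, and the bottom row members that were lower.

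By function, each list of members held at most 1 call. At the share of all tested genes, 2.67%, lists of this size hold few calls or none. The lists were written with earlier results known. Of 13 tested germ cell and sperm genes, none was called and 2 passed an adjusted p of 0.05 (15.4%, against 14.9% of all tested genes). Their median log2 fold change was 0.46, which is the value of Prr22, a gene at -0.19 without WT 3 and WT 5. The range ran from -0.98 for Tmem232 to 1.58 for Efhb, and Sgo1 had the lowest p. Dazl, an RNA-binding protein that germ cells need and the highest member per kb of exon, had 392 to 760 CPM in WT and 468 to 628 CPM in Rfx2-/- mice (log2 fold change -0.11, SE 0.15, adjusted p = 0.569). Of 19 regulators of transcription and chromatin, 2 passed an adjusted p of 0.05 (10.5%). The only call was Khsrp, the RNA-binding protein that the list also held, and it was lower. Satb1, a chromatin organiser, had 5.40 to 9.84 CPM in WT and 4.25 to 5.83 CPM in Rfx2-/- mice (log2 fold change -0.66, adjusted p = 0.0263). The 3 zinc finger genes, which lie together within 1 Mb, had log2 fold changes of -0.28 to -0.07, with Zfp959 lowest in p (adjusted p = 0.257).

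Of 11 mitochondrial genes, Slc25a23 was called and lower, and 4 in all passed an adjusted p of 0.05 (36.4%, against 14.9% of all tested genes). The other 3 had higher values in Rfx2-/- testes, namely Ndufa11, Mrps10 and Alkbh7. Mrps10, a protein of the small mitochondrial ribosome subunit at 9.46 Mb, had 21.4, 21.2, 19.7, 23.8 and 19.6 CPM in WT 1 to 5, and 24.8 to 26.8 CPM with a median of 25.7 in Rfx2-/- mice (log2 fold change 0.29, SE 0.07, adjusted p = 0.0235). Alkbh7, a mitochondrial dioxygenase at 166 kb, had 12.6 to 26.5 CPM in WT and 26.1 to 34.4 CPM in Rfx2-/- mice (log2 fold change 0.65, adjusted p = 0.0468, and 0.38 without WT 3 and WT 5). With total counts as library sizes, Ndufa11 and Mrps10 were at 0.070 and 0.13 (adjusted p = 0.476 and 0.171). Alkbh7 was at 0.52 in that fit (adjusted p = 0.0363). All 5 tested genes of ribosome and translation had positive log2 fold changes, from 0.14 for Dus3l to 0.44 for Tbcc, a tubulin folding cofactor that the list also held, and none was called.

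Of 16 genes of membrane traffic and small GTPases, Tbc1d5 was called and higher, and 5 in all passed an adjusted p of 0.05 (31.2%, against 14.9% of all tested genes). Rab31 and Rab12, small GTPases at 8.94 and 9.69 Mb on the higher side, were the only members beyond 1 Mb on that side to pass it, with log2 fold changes of -0.32 (adjusted p = 0.037) and -0.30 (adjusted p = 0.0485), and of -0.20 and -0.16 without WT 3 and WT 5. Of 19 signalling genes, Stap2 was called and lower, and 3 in all passed an adjusted p of 0.05 (15.8%). The list had a median log2 fold change of 0.15. Prickle4, of the planar polarity family, was at 0.472 to 0.946 CPM in WT and 0.879 to 1.73 CPM in Rfx2-/- mice (log2 fold change 0.77, adjusted p = 0.0494), with 25 counts per mouse on average. None of 8 immune genes was called, and their median log2 fold change was -0.41. They ran from -0.87 for Trem2 to 0.79 for Vav1 (adjusted p = 0.0553), so the list held changes in both directions. Trem2, a receptor of macrophages and their relatives, had the lowest p among them, with 1.23 to 2.86 CPM in WT and 0.555 to 1.61 CPM in Rfx2-/- mice (log2 fold change -0.87, SE 0.28, adjusted p = 0.0542), beside the macrophage marker scores given above. Adgre1 is in both the immune list and the macrophage markers, so the list and the score are not independent. Medians of all tested genes stand at -0.05, and the lists were not compared by a test.

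The 2 untested members were counted mainly in the mice with the highest round spermatid scores. Pp2d1 had 15.8, 3.73, 0.142, 0.175 and 0.0943 CPM in WT 1 to 5, and 0.0925 to 4.50 CPM with a median of 0.241 in Rfx2-/- mice. For 1700122O11Rik, WT 1 had 1.66 CPM and Rfx2-/- 7 had 1.90 CPM, and every other mouse was at or below 0.638 CPM.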

How the data were processed

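RNA was measured by RNA-Seq in testes of 5 WT and 6 Rfx2-/- mice at postnatal day 21. The authors made the deposited table, which holds raw read counts per gene: only reads with a single position were kept, each gene was represented by its protein coding isoforms with their exons merged, and a read touching exons of several genes was not counted. The submitters' processing notes name CASAVA 1.8.2, STAR 2.4, featureCounts 1.4.6 and the build GRCm38, while the study's methods give read length and aligner in more than 1 way. Genes that share exons or have near-identical copies, such as Prickle4 or Rpl36, are counted in part.

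Gene positions came from GENCODE vM21 (GRCm38), which held 22293 of the 23074 gene IDs. The counts were fitted with edgeR 4.0.16 (R 4.3.3): filterByExpr by genotype, TMM scaling, glmQLFit and glmQLFTest without covariates, and Benjamini-Hochberg adjustment over all 15745 tested genes. A gene was called at an adjusted p of at most 0.01 at any fold. CPM are TMM-scaled counts, errors of fold changes follow from the F statistic, and levels per kb use exon length. Genotypes did not overlap where the lowest mouse of one lay above the highest of the other. Marker scores are mean log2 CPM with a prior count of 2, compared by two-sided exact permutation tests. Total counts lay between 22232097 and 29769483 per mouse, and counting error is largest for members near the minimum mean count of 10.

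The genes named are all called members, the 3 nearest to Rfx2 on each side, the farthest called member on each side and the member with the lowest p in each of 8 lists by function, 15 genes in all; those named beyond this rule were chosen after their values were seen. The members and lists were chosen with earlier results of these data known. ChIP-Seq marks are the study's own list. The alternatives were DESeq2 1.42.0 (size factors and Wald test), limma 3.58.1 voom, total counts as library sizes, a robust prior, other filters, thresholds and windows, a round spermatid score as covariate and each mouse left out, and, added after seeing the data, WT 3 and WT 5 left out together. The fit was tested on simulated data in which 200 genes were changed by a log2 fold change of 2 or 3, up or down. Of the 195 that passed the filter edgeR called 182, with 2 unchanged genes, among 16053 tested. Changes as small as those of most members were not simulated, so the share found does not apply to them. Promoters came from RefSeq (GRCm38.p6). Figures were made in Python 3.11.15 with matplotlib 3.10.9.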

Additional observations from a re-analysis of the deposited data

Results flagged for a closer look

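In the 62 combinations of 31 named genes and genotype that were examined, a single mouse stood apart from the others of its genotype in 3, and about 1 in 20 such groups does so by chance. Acsbg2 had 44.1 CPM in WT 1, against 0.0943 to 12.1 CPM in the other WT mice. WT 1 also had the highest round spermatid score. A530064D06Rik had 2.61 CPM in WT 3, against 0.0352 to 0.303 CPM in the other WT mice and at least 8.10 CPM in every Rfx2-/- mouse. Rab31 had 162 CPM in Rfx2-/- 7, against 182 to 191 CPM in the other Rfx2-/- mice.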

How the results depend on the processing

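Counts of calls changed with the test and the mice. The main fit called 5 members, 1 higher and 4 lower. Higher calls numbered 2 with DESeq2's size factors, a mean count of at least 50, or without the mice WT 3 and WT 5. DESeq2's Wald test called 18 members, 9 higher and 9 lower (15.4%, against 13.1% of all genes it tested), voom 11, with 4 higher and 7 lower (9.40% against 6.66%), and the fit with the round spermatid score 31, with 15 higher and 16 lower (26.5% against 21.6%). Without a filter beyond 1 count there were 3, of which 2 were lower (2.52% against 1.75%). At an adjusted p of at most 0.05 there were 19, 7 higher and 12 lower, and at an unadjusted p of at most 0.01 there were 25, 10 higher and 15 lower (21.4% against 17.7%). A window of 5 Mb held 4 calls with 0 higher (6.15% of 65), and one of 20 Mb held 10, with 3 higher and 7 lower (4.35% of 230), against 2.67% of all genes. Without 1 mouse, 1 to 9 members were called, 0 to 3 higher and 1 to 6 lower: 9 without WT 1 (7.76%, against 3.71% of all genes), 3 without WT 5, 2 without WT 2 or Rfx2-/- 9, and 1, Slc25a23, without any 1 of the other Rfx2-/- mice (0.862% against 1.48% without Rfx2-/- 6). Over these 11 fits, 1.46% to 3.71% of all genes were called. The cause was not tested. With total counts as library sizes the median over all tested genes was a log2 fold change of -0.22 in place of -0.05, and Dus3l was at -0.024. Ndufa11 and Mrps10 kept their sign in that fit, at 0.070 and 0.13. Prr22 was at -0.19 without the mice WT 3 and WT 5, and 1700061G19Rik, with 1 mouse left out, lay between -0.0019 without Rfx2-/- 7 and 2.28 without WT 1, with no call. No other named gene changed sign. No paired analysis was possible because the labels do not give the litter of each mouse.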
